A study of Homo sapiens with 12 samples.

Results

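The genes described here are 39 genes of DNA replication and S phase, the cell cycle phase in which the genome is copied, out of 19677 genes counted in each library. They were taken by symbol for their textbook roles, and all 39 were found in the count tables and passed the filter on low counts, which kept 12470 genes. By role they are 4 genes of origin recognition and licensing, 6 subunits of the MCM2-7 helicase, 6 genes of helicase activation, 6 of polymerases and primase, 5 of the sliding clamp and its loader, 2 of flap removal and ligation, 4 of nucleotide supply, 4 of the E2F and cyclin E group and 2 of chromatin copying.

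RNA was sequenced from CAOV3, an established human epithelial line from high-grade serous ovarian cancer, labelled WT in genotype, in 4 groups of 3 libraries. Control cells received DMSO, with no time listed. Ascites cells received 10% ovarian cancer ascites, fluid from the abdomen of this disease, with DMSO for 16 hours. Bezafibrate cells received 200 uM of bezafibrate, a fibrate drug that activates PPAR nuclear receptors, for 16 hours, and combination cells received the ascites and the drug together for 16 hours. DMSO is named only for the groups without the drug, and all cells grew with fetal bovine serum. All 4 groups are 1 cell line, and the labels do not say whether replicates came from separate cultures or days, or whether the ascites came from 1 person or a pool, so p-values measure only the spread between these libraries.

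Before S phase, the origin recognition complex, CDC6 and CDT1 load the ring-shaped MCM2-7 helicase onto DNA, a step called licensing. At S phase entry CDC45 and the GINS complex turn the loaded ring into an active helicase, and polymerases alpha, delta and epsilon copy both strands with the help of the PCNA clamp. Many genes of this machinery are targets of E2F transcription factors, which are held in check by RB-family proteins and released by cyclin-dependent kinases, and CDK inhibitors such as p21 act against those kinases.

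Members were chosen by textbook role and not by promoter sequence. As many genes of this machinery are known E2F targets, their share of E2F-type words is not independent of that choice. No word searched stood in all of their windows. RefSeq promoter windows on GRCh38.p14, running from 250 bases before to 50 bases after the start, were available for 35 of the 39 genes, and CCNE2, MCM5, GINS4 and MCM4 had none. An E2F-type word (TTTGGCGC, TTTCCCGC, TTTGCCGC or TTTCGCGC, on either strand) stood in the windows of 20 of the 35 genes, or 57.1%. Across all genes of the count tables with such a window it stood in 827 of 15166, or 5.45%. CCAAT, the word bound by NF-Y, was found on either strand in 21 of 35 members against 42.5% of all genes. The word of the cell cycle homology region (TTTGAA or TTCGAA) was found in 2 of 35 members against 17.5% of all genes. The PPAR-type direct repeat (AGGTCA, any base, then AGGTCA) was in 0 of 35 members and in 5 of the 15166 genes, so this window gives no description of it. The 6 stretches below are shown because they hold an E2F-type word upstream of a RefSeq start in the genes with the lowest adjusted p for bezafibrate. Each starts 200 bases before a RefSeq start and is printed 5′ to 3′ on the gene's strand with the word, or its reverse complement, in capitals. Stretches were ended where 30 bases inside GENCODE v29 exons were reached, and UHRF1 is shown at the second of its RefSeq starts. The words shown for MCM7, TYMS and POLE lie inside GENCODE v29 exons, as does the whole MCM7 stretch. TTTCGCGC words nearer the RefSeq start of MCM3 and MCM7 fell outside the printed stretches.
E2F2: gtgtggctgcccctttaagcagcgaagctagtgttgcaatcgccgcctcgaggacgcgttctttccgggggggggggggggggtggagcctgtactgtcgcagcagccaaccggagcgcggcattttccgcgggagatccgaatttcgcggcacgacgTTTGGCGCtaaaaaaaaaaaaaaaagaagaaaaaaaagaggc
MCM3: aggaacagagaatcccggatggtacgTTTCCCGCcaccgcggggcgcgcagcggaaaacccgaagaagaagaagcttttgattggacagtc
POLE: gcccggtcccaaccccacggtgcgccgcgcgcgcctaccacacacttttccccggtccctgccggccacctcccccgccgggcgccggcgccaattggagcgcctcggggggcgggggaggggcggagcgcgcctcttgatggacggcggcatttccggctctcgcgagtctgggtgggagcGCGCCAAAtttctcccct
UHRF1: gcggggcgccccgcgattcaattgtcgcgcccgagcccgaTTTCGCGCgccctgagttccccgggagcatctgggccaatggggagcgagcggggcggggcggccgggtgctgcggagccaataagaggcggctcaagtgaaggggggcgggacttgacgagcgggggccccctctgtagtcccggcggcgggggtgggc
MCM7: gccagctcggaccGCGGGAAAcccggcgcc
TYMS: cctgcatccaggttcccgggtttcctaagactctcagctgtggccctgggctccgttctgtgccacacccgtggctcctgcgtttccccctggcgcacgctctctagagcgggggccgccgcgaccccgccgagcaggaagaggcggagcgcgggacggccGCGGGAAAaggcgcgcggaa
Their positions on GRCh38.p14 are chr1:23531234-23531433 (reverse strand) for E2F2, chr6:52284852-52284942 (reverse strand) for MCM3, chr12:132687343-132687542 (reverse strand) for POLE, chr19:4909944-4910143 (forward strand) for UHRF1, chr7:100101568-100101597 (reverse strand) for MCM7 and chr18:657453-657633 (forward strand) for TYMS. E2F2 and TYMS were higher with bezafibrate and the other 4 were lower, as described below. E2F-type words stood in the windows of 3 of 3 members that rose with the drug, 8 of 14 that fell and 9 of 18 that were not called. The MCM6 window held 2 overlapping pairs of TTTGGCGC and TTTCGCGC, starting 152 and 90 bases before the start, and MCM6 was among the genes not called. A match is a string of letters in a window and not a measured site.

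Total counts ran from 11831093 to 18762759 per library, and the common biological coefficient of variation was 3.06%. Combination replicate 3 lay apart from the other 11 libraries on the second principal component (-22.4 against -4.37 to 9.84), so counts are also given without it. PDK4, a standard PPAR target read as a check of the drug, went from 8.26 ± 0.353 CPM in control to 138.8 ± 1.89 CPM with bezafibrate (SD, n = 3; CPM is the count per 1e+06 counts of a library, with library size scaled by edgeR's TMM method). Keratins, EPCAM and CDH1 marked the cells as epithelial, while the serous markers WT1, MUC16 and WFDC2 had 15, 10 and 2 counts over all 12 libraries, SOX17 had 0 and PAX8 had 122. The leukocyte genes S100A8, S100A9, TYROBP, PTPRC and CD3E and the platelet genes GP9, PF4 and PPBP were at 0 in every library. The other leukocyte genes CD68, CD14 and LYZ had 14494, 460 and 123 counts over all 12 libraries. The red cell genes HBA1, HBA2 and HBB had 94, 51 and 15, and the mesothelial genes CALB2, UPK3B and LRRN4 had 149, 62 and 5. Of the 35 markers read 16 passed the filter on low counts. In ascites against control 0 of the 16 were called, but only 0.0882% of all genes were. For any difference over the 4 groups, 20.9% of all genes were called. Among the markers these were CD68, CDH1, the keratins KRT7, KRT8, KRT18 and KRT19 and the fibroblast genes LUM, COL1A1 and COL3A1.

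Bezafibrate lowered many of these genes modestly and raised 3 of them. With the drug effect averaged over cells without and with ascites, the helicase subunits MCM2, MCM3, MCM4, MCM5 and MCM7 had log2 fold changes of -0.16 to -0.10. The strongest of these, MCM2, fell by 10.6%, and the weakest, MCM7, fell by 6.43%. POLE fell by 9.94%, TK1 fell by 9.87% and UHRF1 fell by 9.55%. E2F2 rose by 65.3%, GINS3 by 14.9% and TYMS by 5.67%. In all 16 genes were lower and 3 higher of the 39 by edgeR's quasi-likelihood test, with the Benjamini-Hochberg adjusted p below 0.05 across all 12470 genes (the meaning of "called" throughout). Among all genes tested, 28.3% were called in this comparison, 1649 lower and 1876 higher. Among the 8178 genes expressed at or above the lowest member mean, 15.3% were called lower and 17.6% higher. The median log2 fold change of the 39 genes was -0.07, against -0.0047 over all genes tested, and 33 of the 39 were below 0 against 51.7% of all genes. In bulk RNA, fewer cells in S phase and less RNA per cell cannot be told apart.

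The 6 libraries with bezafibrate lay wholly below the 6 without it for 8 genes (MCM2, MCM3, MCM4, MCM5, MCM7, CDC45, POLE and UHRF1; 6.32% of all genes did so). They lay wholly above for 3 genes (E2F2, GINS3 and TYMS; 9.01% of all genes), and the 2 sets of libraries overlapped for the other 28. Without combination replicate 3 the split of called members was again 16 lower and 3 higher. The genes were not all the same, as ORC6 lost its call there. With library sizes scaled by the upper quartile the split was 19 lower and 3 higher, while the share of all called genes that were higher moved from 53.2% to 43.3%. Summed over all 39 genes, the level was 5417 ± 32.6 CPM in control, 5421 ± 70.4 CPM with ascites, 5163 ± 20.9 CPM with bezafibrate and 5167 ± 22.5 CPM with the combination (SD, n = 3). The sum with bezafibrate was thus 95.3% of control, and with the combination it was 95.4%. The subunits MCM2 to MCM7 held 2009 of the 5417 CPM in control and 1852 of the 5163 CPM with bezafibrate.

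**Figure D1:**
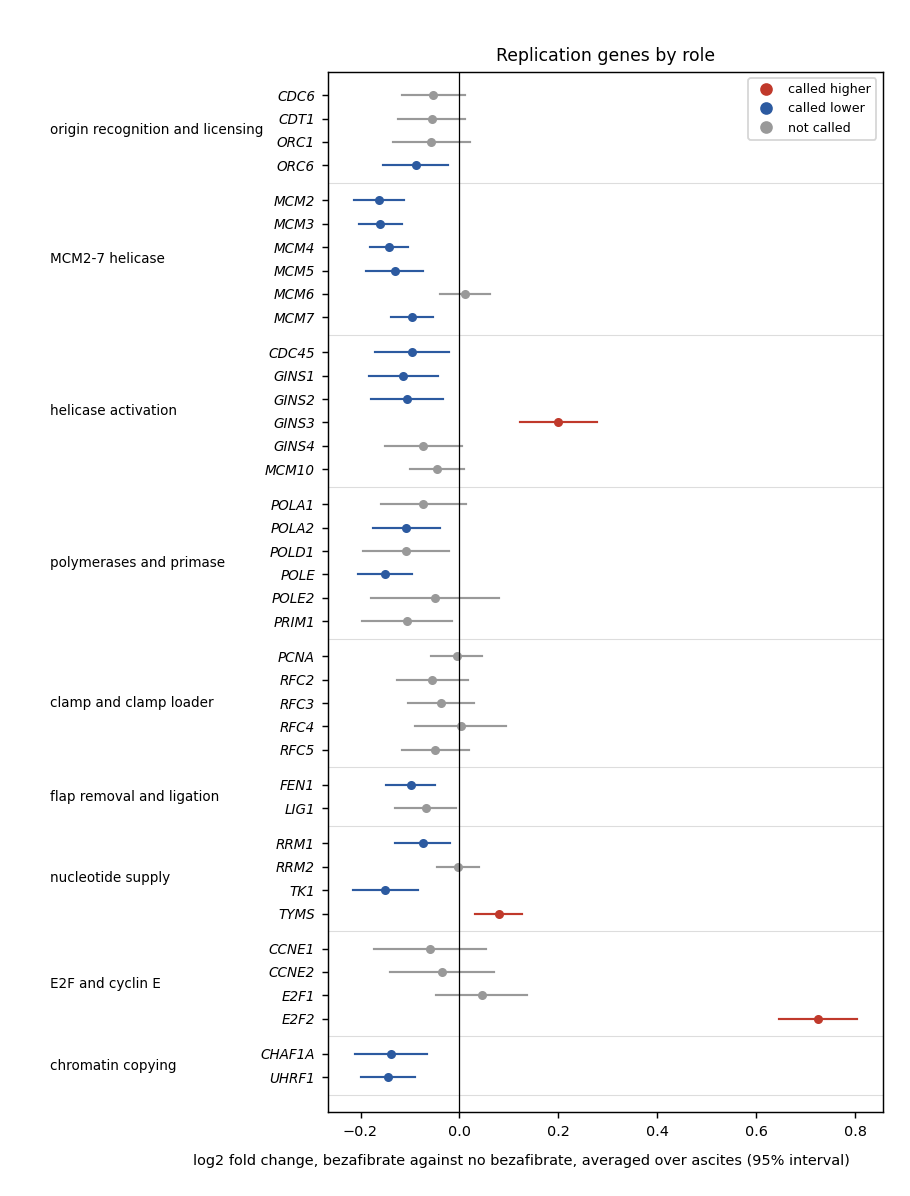
Log2 fold change of each of the 39 genes with bezafibrate against without it, averaged over ascites, with 95% intervals from edgeR (6 libraries against 6), grouped by role on the vertical axis. Red points were called higher, blue lower and grey not called. E2F2 stands alone at 0.73, and 16 genes are blue with changes between -0.16 and -0.07.

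Of the 4 licensing genes 1 fell in the averaged drug effect, and all 4 values were below 0. ORC6, a subunit of the origin recognition complex, had the lowest adjusted p of the 4 and measured 72.4, 71.3 and 70.1 CPM in the control libraries, 71.3, 68.5 and 71.1 CPM with ascites, 66.5, 67.4 and 63.5 CPM with bezafibrate and 67.2, 69.1 and 65.9 CPM with the combination. The bezafibrate libraries all lay below the control libraries, whereas the combination and ascites libraries overlapped. Its averaged log2 fold change was -0.09 (SE 0.0325, edgeR adjusted p 0.0381). That call was lost under 10 of 18 alternative settings, among them DESeq2, no filter on low counts and leaving out combination replicate 3. ORC1, the ATP-binding ORC subunit, CDC6, the loader of the MCM ring, and CDT1, its escort, had averaged changes of -0.06, -0.05 and -0.06 (edgeR adjusted p 0.294, 0.230 and 0.234). In bezafibrate against control 0 of the 4 were called, 2 had an unadjusted edgeR p under 0.05, and their median of -0.10 was beyond that of all 39 genes (-0.08). ORC1 was at -0.13 and ORC6 at -0.11 there (edgeR adjusted p 0.0924 and 0.0807), with every bezafibrate library below every control library, while in the combination against ascites they were at 0.02 and -0.06 with overlapping libraries. In the latter comparison the median of the 4 was -0.04, nearer to no change than that of all 39 genes (-0.08). The interaction of ORC1 was 0.15 (SE 0.0767, unadjusted edgeR p 0.0620).

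Of the 6 subunits of the MCM2-7 helicase, 5 fell with bezafibrate and MCM6 was not called. MCM2 (ENSG00000073111.14, chr3:127598223-127622436) measured 192, 196 and 196 CPM in control, 196, 205 and 198 CPM with ascites, 172, 174 and 181 CPM with bezafibrate and 178, 183 and 170.4 CPM with the combination. Every library with the drug lay below every library without it. Its averaged log2 fold change was -0.16 (SE 0.0249, edgeR adjusted p 2.01e-06). MCM3 (ENSG00000112118.20, chr6:52264009-52284881) gave 312, 309 and 320.0 CPM in control and 302, 299 and 305 CPM with ascites, then 269.9, 278 and 275 CPM with bezafibrate and 280.1, 276 and 275 CPM with the combination. The drug libraries were again all lower, and the ascites libraries lay just below the control ones, a difference that was not called (log2 -0.05, edgeR adjusted p 0.894). The averaged drug change of MCM3 was -0.16 (SE 0.0212, edgeR adjusted p 1.08e-07).

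MCM4 (ENSG00000104738.18, chr8:47960185-47978160) had the highest level per kilobase of median coding transcript of the 39 genes in control, at 226 CPM. This rank depends on the length used, which was 2957 bases against 4480 exonic bases for MCM4. Its libraries stood at 676, 676 and 655 CPM in control, 669, 686 and 680.3 CPM with ascites, 611, 615 and 611 CPM with bezafibrate and 618, 599.9 and 608 CPM with the combination. The lowest library without the drug was above the highest with it, and the averaged log2 fold change was -0.14 (SE 0.0188, edgeR adjusted p 9.88e-08). MCM5 (ENSG00000100297.16, chr22:35400063-35425430) stood at 141, 140.0 and 139 CPM in control, 141, 149 and 145 CPM with ascites, 130.2, 132 and 129 CPM with bezafibrate and 134, 134 and 119.8 CPM with the combination. All drug libraries were lower, with combination replicate 3 lowest of all, and the averaged change was -0.13 (SE 0.0284, edgeR adjusted p 3.85e-04). MCM5 kept its averaged call in every one of the 18 alternative settings, including the one without that library.

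MCM7 (ENSG00000166508.18, chr7:100092728-100101940) measured 509, 510.4 and 502 CPM in control, 491, 525 and 499 CPM with ascites, 459, 473 and 485 CPM with bezafibrate and 469, 474 and 482 CPM with the combination. Drug and no-drug libraries did not overlap, although the nearest pair was only a few CPM apart. The averaged change was -0.10 (SE 0.0209, edgeR adjusted p 4.26e-04). Antisense AP4M1 covers 7.4% of the exonic bases of MCM7, and strandedness of the counting is not stated, so a small part of its counts is uncertain. MCM6, by contrast, stood at 180.2, 192 and 182 CPM in control, 191, 185 and 191 CPM with ascites, 186, 191 and 186 CPM with bezafibrate and 185, 192 and 189.9 CPM with the combination. These 4 groups overlapped throughout, and the averaged change was 0.01 with a 95% interval of -0.04 to 0.06 (edgeR adjusted p 0.795). That interval does not reach the changes of the other 5 subunits. Summed over MCM2 to MCM7, the libraries stood at 2010.4, 2024 and 1994 CPM in control, 1991, 2050 and 2019 CPM with ascites, 1828, 1862 and 1867 CPM with bezafibrate and 1864, 1859 and 1845 CPM with the combination. The mean with bezafibrate was 92.2% of control, and with the combination it was 92.4%.

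**Figure D2:**
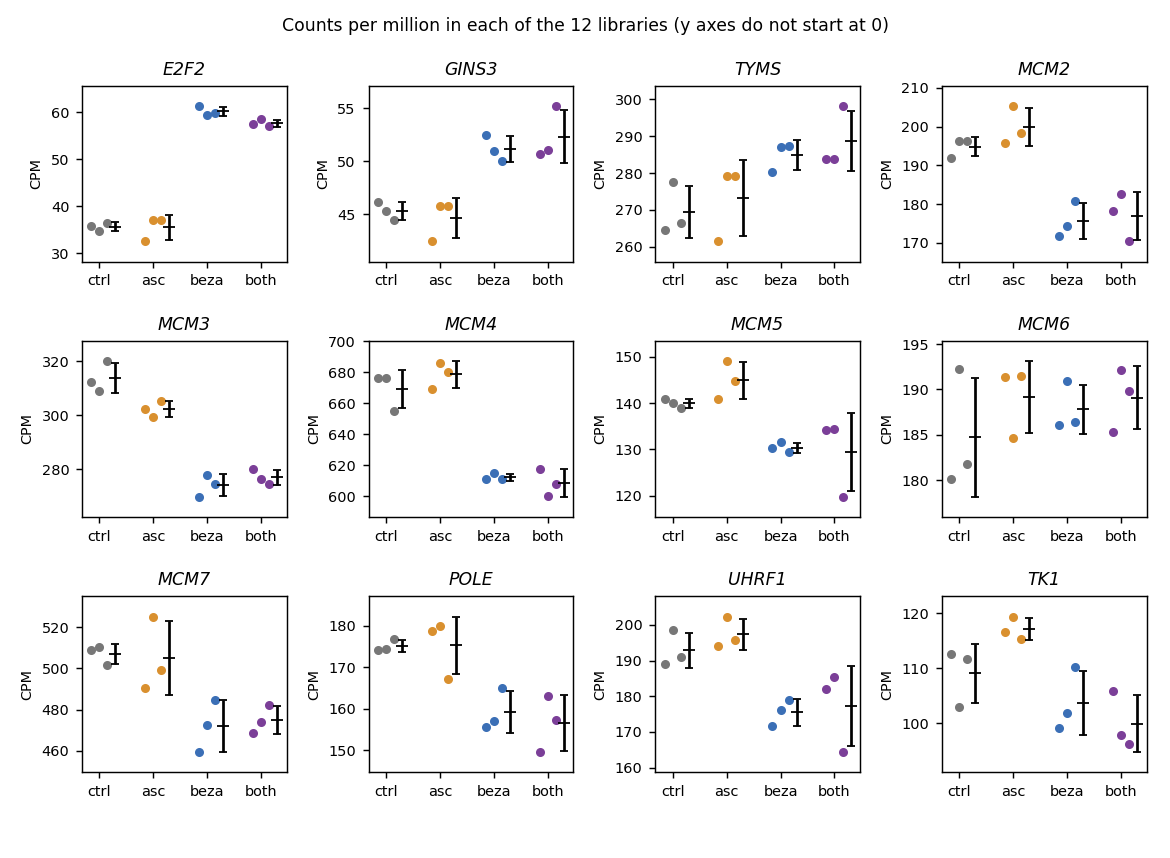
CPM of 12 of the genes in each of the 12 libraries, with the control (ctrl), ascites (asc), bezafibrate (beza) and combination (both) groups on the horizontal axis and group means with SD as black bars (n = 3). The vertical axes do not start at 0. In 10 of the 12 panels the libraries with bezafibrate do not overlap those without it. MCM6 and TK1 are the exceptions. The panels are a selection that holds most of the genes without overlap. FEN1 and CHAF1A, which were called but overlapped, are not shown. Of all 39 genes, 8 lay wholly below with the drug, 3 lay wholly above and 28 overlapped. Among all genes tested, 6.32% lay wholly below and 9.01% wholly above.

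Helicase activation was mixed. The GINS complex has 4 subunits in equal parts, yet GINS3 rose while GINS1 and GINS2 fell and GINS4 was not called (-0.07, edgeR adjusted p 0.165). GINS3 (ENSG00000181938.14, chr16:58295080-58406144) measured 46.2, 45.3 and 44.5 CPM in control, 42.4, 45.7 and 45.8 CPM with ascites, 52.4, 51.0 and 50.0 CPM with bezafibrate and 50.7, 51.0 and 55.2 CPM with the combination. The highest library without the drug was below the lowest with it, and the averaged log2 fold change was 0.20 (SE 0.0381, edgeR adjusted p 6.80e-05). GINS1 went from 71.2 ± 2.69 CPM in control to 64.1 ± 1.06 CPM with bezafibrate, and from 70.1 ± 0.636 with ascites to 66.4 ± 4.27 CPM with the combination (SD, n = 3). The averaged changes of GINS1 and GINS2 were -0.11 and -0.11 (edgeR adjusted p 0.0111 and 0.0249). GINS1 lost its call without combination replicate 2, and GINS2 lost its call under DESeq2 and in 5 of the fits that left out 1 library (control 2 or 3, ascites 2, bezafibrate 2 or combination 2).

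CDC45, which joins the ring with GINS, had an averaged change of -0.10 (SE 0.0370, edgeR adjusted p 0.0486). Its 6 libraries with the drug lay below the 6 without, but the adjusted p was close to the threshold and the call was lost under 14 of 18 alternatives, among them DESeq2 and each fit without 1 control, ascites or bezafibrate library. MCM10, a helicase activation factor, was not called (-0.05, edgeR adjusted p 0.217).

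Among the polymerases, the catalytic subunit of the leading-strand enzyme moved most. POLE (ENSG00000177084.18, chr12:132623753-132687365), that subunit of polymerase epsilon, measured 174, 174 and 177 CPM in control, 179, 179.9 and 167 CPM with ascites, 156, 157 and 165 CPM with bezafibrate and 149.6, 163 and 157 CPM with the combination. The 2 sets did not overlap, with ascites replicate 3 and bezafibrate replicate 3 nearest to each other. The averaged log2 fold change of POLE was -0.15 (SE 0.0270, edgeR adjusted p 2.67e-05). POLE2, the second epsilon subunit, is a low-level gene at 17.1 ± 1.39 CPM in control and had a change of -0.05 with an interval of -0.18 to 0.08, which includes the change of POLE. POLA2, the accessory subunit of polymerase alpha, fell (-0.11, SE 0.0336, edgeR adjusted p 0.0137) and lost its call without control replicate 1. POLA1, the catalytic alpha subunit, PRIM1, a primase subunit, and POLD1, the catalytic subunit of polymerase delta, had values of -0.07, -0.11 and -0.11 (edgeR adjusted p 0.218, 0.0768 and 0.0590). PRIM1 and POLD1 share 25.78% and 10.88% of their exonic bases with another annotated gene on the same strand, so their counts are uncertain.

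The clamp and its loader gave 0 called genes of 5 by edgeR, 0 with an unadjusted p under 0.05, and DESeq2 called 0 as well. RFC2, the loader subunit with the lowest p, measured 79.4, 70.7 and 77.0 CPM in control, 79.0, 77.1 and 74.9 CPM with ascites, 78.9, 75.7 and 70.6 CPM with bezafibrate and 69.1, 73.5 and 73.7 CPM with the combination. Groups overlapped except that the combination lay below ascites alone, and the averaged change was -0.05 (edgeR adjusted p 0.277). PCNA, the sliding clamp, stood at 172 ± 3.01 CPM in control, 172 ± 1.32 with ascites, 169 ± 6.83 with bezafibrate and 173 ± 3.92 CPM with the combination (SD, n = 3). Its averaged change of -0.01 had an interval of -0.06 to 0.05. RFC3, RFC4 and RFC5 had averaged changes of -0.04, 0.0028 and -0.05.

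FEN1 (ENSG00000168496.4, chr11:61792637-61797244), which trims the flaps of Okazaki fragments, measured 165, 168 and 165 CPM in control, 157, 165 and 162 CPM with ascites, 160.0, 157 and 156 CPM with bezafibrate and 147, 149 and 148 CPM with the combination. The combination libraries were the lowest 3, while 1 ascites and 1 bezafibrate library crossed. The averaged change was -0.10 (SE 0.0246, edgeR adjusted p 0.00200), and TMEM258 and FADS2 overlap 6.7% and 1.98% of its exonic bases. FADS2, on the same strand, was called lower with ascites averaged over the drug (log2 -0.19, edgeR adjusted p 0.00874). TMEM258, on the other strand, was not called there, and the part of either in the FEN1 counts was not tested. LIG1, the ligase that joins the fragments, was not called (-0.07, edgeR adjusted p 0.0960).

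Nucleotide supply held changes in both directions. TK1 (ENSG00000167900.12, chr17:78174075-78187233), the thymidine kinase of the salvage route, measured 113, 103 and 112 CPM in control, 117, 119 and 115 CPM with ascites, 99.0, 102 and 110.2 CPM with bezafibrate and 106, 97.7 and 96.2 CPM with the combination. Control replicate 2 overlapped the bezafibrate libraries, whereas the combination lay wholly below ascites alone. The averaged change was -0.15 (SE 0.0323, edgeR adjusted p 3.71e-04). TYMS (ENSG00000176890.16, chr18:657604-673578), the thymidylate synthase of the de novo route, measured 265, 278 and 266 CPM in control, 261, 279 and 279 CPM with ascites, 280.2, 287 and 287 CPM with bezafibrate and 284, 284 and 298 CPM with the combination. All drug libraries were above all others by a narrow margin, and the averaged change was 0.08 (SE 0.0234, edgeR adjusted p 0.00855). ENOSF1 runs antisense over 58.18% of the exonic bases of TYMS and its own averaged change was -0.02 (edgeR adjusted p 0.795), so the split of reads between them is uncertain. RRM1, the large subunit of ribonucleotide reductase, fell by 5.03% (log2 -0.07, edgeR adjusted p 0.0373) and lost its call under 8 of 18 alternatives, DESeq2 among them. RRM2, the S-phase subunit, averaged 566 ± 5.12 CPM in control and 554 ± 3.71 CPM with bezafibrate, and its interval for the averaged change was -0.05 to 0.04.

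E2F2 (ENSG00000007968.7, chr1:23506430-23531220), an activator E2F, moved most of the 39 genes and in the direction opposite to most of them. It measured 35.9, 34.7 and 36.5 CPM in control, 32.5, 37.2 and 37.1 CPM with ascites, 61.3, 59.5 and 59.9 CPM with bezafibrate and 57.4, 58.5 and 57.0 CPM with the combination. The lowest library with the drug was far above the highest without it. The averaged log2 fold change was 0.73 (SE 0.0393, 95% interval 0.65 to 0.80, edgeR adjusted p 6.87e-18). Per kilobase of median coding transcript it was the lowest of the 39 in control, at 6.88 CPM. That rank depends on the length used, which for CCNE2 was 2042.5 bases against 3635 exonic bases. E2F1, the other activator E2F among the 39 genes, stood at 56.9 ± 2.06, 56.7 ± 6.06, 59.8 ± 1.91 and 57.0 ± 4.85 CPM in control, ascites, bezafibrate and combination (SD, n = 3). Its averaged change of 0.05 had an interval of -0.05 to 0.14, which does not reach that of E2F2. CCNE1 and CCNE2, the E-type cyclins of S phase entry, had values of -0.06 and -0.04 and were not called, and CCNE2 shares 44.81% of its exonic bases with antisense INTS8.

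Both genes of chromatin copying fell. UHRF1 (ENSG00000276043.5, chr19:4903080-4962154), which brings the maintenance methyltransferase to new DNA, measured 189, 198 and 191 CPM in control, 194, 202 and 196 CPM with ascites, 172, 176 and 179 CPM with bezafibrate and 182, 185 and 164 CPM with the combination. No library with the drug reached one without it, and combination replicate 3 was the lowest. The averaged change was -0.14 (SE 0.0270, edgeR adjusted p 5.05e-05). CHAF1A (ENSG00000167670.16, chr19:4402662-4445018), the large subunit of the CAF-1 histone chaperone, measured 78.1, 75.1 and 70.2 CPM in control, 75.7, 78.4 and 79.7 CPM with ascites, 67.2, 72.6 and 66.4 CPM with bezafibrate and 72.2, 71.3 and 64.9 CPM with the combination. Control replicate 3 overlapped the drug libraries, and the averaged change was -0.14 (SE 0.0358, edgeR adjusted p 0.00290).

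Bezafibrate against control and the combination against ascites share no library. They were scaled and fitted together, with a shared estimate of the spread of each gene, so their calls are not independent. Bezafibrate against control called 9 of the 39 genes (2 higher, 7 lower), where 17.6% of all genes were called, 10.1% higher and 7.55% lower. In it 33 of the 39 changes were below 0 (51.5% of all genes), and the 3 libraries of each group stood apart for 18 genes that were lower and 4 that were higher (16.3% and 17.2% of all genes). The lower genes were MCM2, MCM3, MCM4, MCM7, GINS1, POLE and UHRF1, and the higher were GINS3 and E2F2. The combination against ascites called 13 (2 higher, 11 lower), where 17.8% of all genes were called, 10.5% higher and 7.29% lower. In it 30 changes were below 0 (51.2% of all genes), and the groups stood apart for 16 genes that were lower and 3 that were higher (14.5% and 16.0% of all genes). Its lower genes were MCM2, MCM3, MCM4, MCM5, MCM7, POLA2, POLE, FEN1, TK1, UHRF1 and CHAF1A, and its higher genes were again GINS3 and E2F2. Called in the same direction in both were 8 genes (MCM2, MCM3, MCM4, MCM7, POLE, UHRF1, GINS3 and E2F2), where 12.6% of all genes were. The sign was the same for 32 of the 39, and 25 were called in neither. Across the 39 genes, which are not independent replicates, the changes in the 2 comparisons had a Pearson r of 0.89, which was 0.62 without E2F2.

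**Figure D3:**
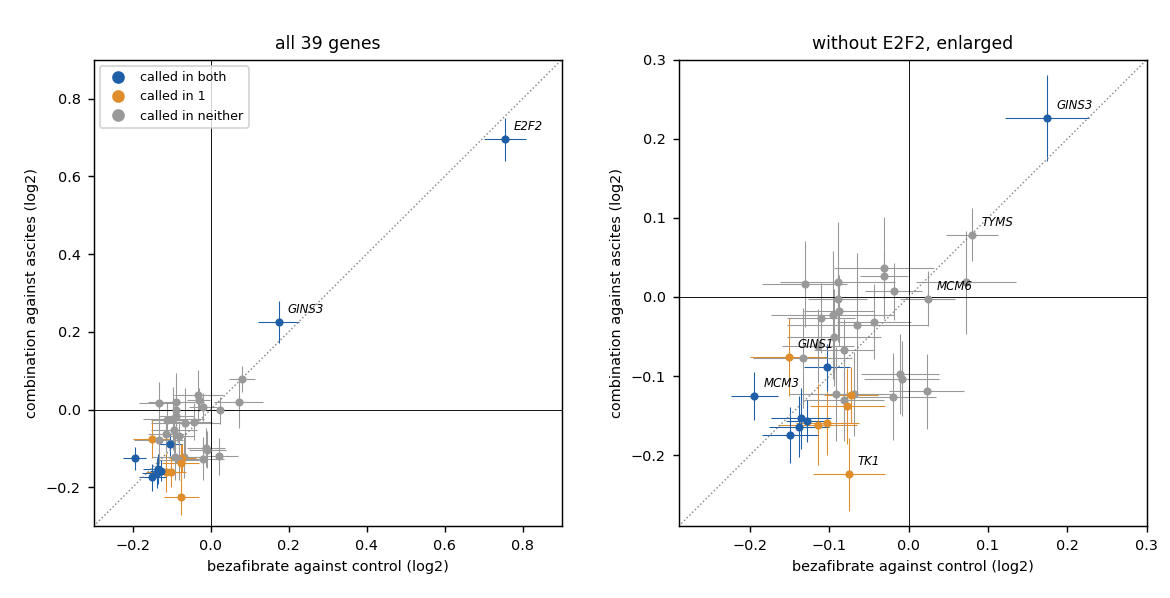
Log2 fold change of each of the 39 genes for bezafibrate against control (horizontal axis) and for the combination against ascites (vertical axis), with 1 SE in each direction and the line of equal change dotted. The left panel shows all genes and the right panel enlarges those other than E2F2. Blue points were called in both comparisons (8 genes), orange in 1 and grey in neither (25 genes).

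The number of calls without ascites moved with the settings. In bezafibrate against control, 14 of the 39 were called with upper-quartile scaling (12 lower, 2 higher) and 19 with trends in GC content and length removed (17 lower, 2 higher). Under the latter the share of all called genes that were higher was 46.7%, against 57.2% as fitted. It was 6 without control replicate 2 or without bezafibrate replicate 1 and 12 without combination replicate 3. MCM2, MCM3, MCM4 and E2F2 kept their call under all 19 alternatives. MCM7, POLE, UHRF1, GINS3 and GINS1 each lost theirs under at least 1 of them, GINS3 and GINS1 under DESeq2. In the combination against ascites, 9 of the 13 kept their call under all 19 (MCM2 to MCM5, GINS3, POLE, TK1, E2F2 and UHRF1), and 12 were called without combination replicate 3. The combination against control, which shares libraries with both, called 10 of 39 (3 higher, 7 lower; 18.2% of all genes, 10.3% higher and 7.96% lower).

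Ascites changed none of the 39 genes beyond the threshold. By edgeR 0 of 39 were called in ascites against control, where 0.0882% of all genes were called, and 2 had an unadjusted p under 0.05. For the combination against bezafibrate the count was 0 (0.128% of all genes), with 1 gene at an unadjusted p under 0.05, and averaged over the drug it was 0 (0.281%), also with 1. DESeq2 called 0 in each of these. The medians over the 39 genes were -0.0018 in ascites against control and 0.0056 in the combination against bezafibrate. Without the drug, the 3 ascites libraries stood apart from the 3 control libraries for 4 genes (higher for RFC5 and TK1, lower for MCM3 and RRM2; 5.64% and 7.06% of all genes did so). TK1 was at 117 ± 2.09 CPM with ascites against 109 ± 5.37 in control (log2 0.10, interval 0.01 to 0.19, edgeR adjusted p 0.806). For E2F2 the same comparison gave -0.0041 with an interval of -0.13 to 0.12, and for MCM2 it gave 0.04 with an interval of -0.03 to 0.11.

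Whether ascites altered the response to bezafibrate was tested by the interaction term. EdgeR called 0 of 39 genes (0.00% of all genes), the lowest adjusted p among the 39 was 0.999, and DESeq2 also called 0. TK1 and RFC5 had an unadjusted p under 0.05. TK1 changed by -0.08 with the drug alone and by -0.22 in the presence of ascites, an interaction of -0.15 (SE 0.0647, unadjusted edgeR p 0.0272). RFC5 had values of 0.02 and -0.12, an interaction of -0.14 (SE 0.0669, unadjusted edgeR p 0.0408). A test of any difference over the 4 groups called 12 of 39 genes, where 20.9% of all genes were called.

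**Figure D4:**
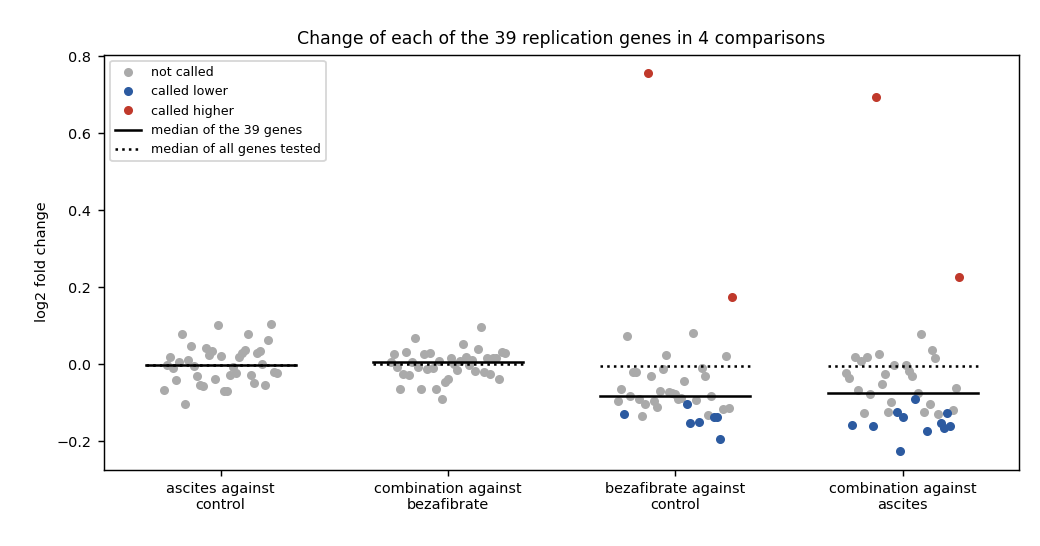
Log2 fold change (vertical axis) of each of the 39 genes in 4 comparisons (horizontal axis), with the median of the 39 as a solid line and that of all genes tested as a dotted line. The 2 ascites comparisons on the left hold 0 called genes. In the 2 bezafibrate comparisons on the right the solid line lies below the dotted one and E2F2 is the highest point.

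Other genes of the cell cycle were read from lists chosen by function. Of 42 other replication genes tested, 5 fell and 2 rose in the averaged drug effect, and the median was -0.04. The share called was 16.7%, below the 28.3% of all genes. TOP1, the topoisomerase that relieves twist ahead of the fork, went from 600.4 ± 20.8 to 536 ± 23.3 CPM (SD, n = 6), a log2 change of -0.16 (edgeR adjusted p 6.52e-07). WDHD1, which ties helicase to polymerase alpha, changed by -0.16, the fork protection genes CLSPN and TIMELESS by -0.12 and -0.11, and RPA1, which coats single strands, by -0.07. POLD4, the small delta subunit, rose by 0.29 and ORC3 by 0.17. Of 20 other genes of nucleotide supply and chromatin copying, 9 fell and 0 rose (45% called), with a median of -0.07. CAD, which starts pyrimidine synthesis, changed by -0.15 (edgeR adjusted p 1.17e-06), and SLBP, which binds histone mRNA, HELLS, a chromatin remodeller, NASP, a histone chaperone, and CTPS1, the CTP synthase, changed by -0.12 to -0.09.

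Among 29 G1/S regulators tested of 32 listed, 13 fell and 4 rose (58.6% called), with a median of -0.08. CDKN1A, which encodes the CDK inhibitor p21, went from 11.7 ± 0.982 to 25.9 ± 3.27 CPM (SD, n = 6), a log2 change of 1.15 (SE 0.0683, edgeR adjusted p 2.22e-16), with no overlap between libraries. MYBL2, an E2F target and transcription factor, rose from 396 ± 5.45 to 481 ± 11.4 CPM (log2 0.28, edgeR adjusted p 5.78e-14), and CCND3, a D-type cyclin, rose by 0.28. RBL2, an RB-family repressor, rose by 0.12. Those that fell most were TFDP2, a partner of E2Fs, at -0.35, CDKN2A, a CDK4 inhibitor gene, at -0.26, the RB relative RBL1 at -0.18, the repressor E2F8 at -0.17 and SKP2, which targets CDK inhibitors for degradation, at -0.16. CCND1, the main D-type cyclin here, went from 713 ± 12.4 to 652 ± 15.7 CPM (log2 -0.13, edgeR adjusted p 1.86e-06), and CDKN1B, which encodes the inhibitor p27, changed by -0.13 (edgeR adjusted p 0.00292). RB1, E2F7 and CCNA2 were not called, at -0.05, -0.08 and 0.04 (edgeR adjusted p 0.430, 0.164 and 0.303).

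Of 24 genes of the replication checkpoint and repair, 4 fell and 1 rose, with a median of -0.06. The share called was 20.8%, also below the 28.3% of all genes. BRIP1, a helicase, UNG, which removes uracil from DNA, and the DNA repair genes XRCC3 and XRCC2 changed by -0.22, -0.18, -0.17 and -0.12, and RAD17, which loads the checkpoint clamp, rose by 0.24. Of 34 genes of G2/M and mitosis, read to see whether values outside S phase moved as well, 13 fell and 0 rose (38.2% called), with a median of -0.05. AURKB and ECT2, both needed for cell division, changed by -0.22 and -0.20 and CDK1, the mitotic kinase, by -0.12. MKI67, the common proliferation marker, was not called (0.01, edgeR adjusted p 0.886). Bezafibrate against control called 8 of these 34 (23.5%; 17.6% of all genes) and the combination against ascites 3 (8.82%; 17.8% of all genes). Summed over the 34 genes, the level was 6817 ± 69.9 CPM in control, 6676 ± 23.2 with ascites, 6530.3 ± 51.9 with bezafibrate and 6532 ± 192 CPM with the combination (SD, n = 3). As shares of control these were 97.9% with ascites, 95.8% with bezafibrate and 95.8% with the combination, against 100.1%, 95.3% and 95.4% for the 39 replication genes. The combination libraries of this sum (6344 to 6727 CPM) overlapped those with ascites alone (6655 to 6701 CPM). The difference between the lists was not tested.

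**Figure D5:**
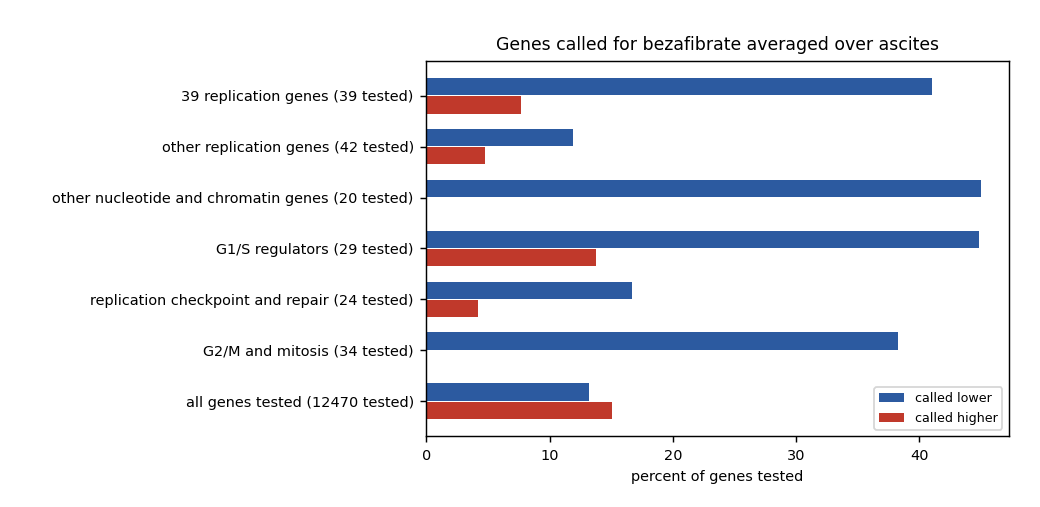
Percent of tested genes called lower (blue) and higher (red) for bezafibrate averaged over ascites (horizontal axis) in the 39 replication genes, 5 other lists and all genes tested (vertical axis, with the number tested). In the 39 genes 16 are lower and 3 higher, and in G2/M and mitosis 13 of 34 are lower and 0 higher.

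Summed leukocyte and fibroblast markers differed with the drug as well. The CPM values in this paragraph are per total count of each library, without TMM scaling. The summed level of the 8 leukocyte markers was 74.5 to 78.3 CPM in control, 75.7 to 84.9 with ascites, 91.7 to 96.4 with bezafibrate and 93.3 to 100.8 CPM with the combination. It came almost wholly from CD68, a lysosomal protein gene, with 5 of the 8 at 0. The 6 fibroblast markers summed to 192.7 to 197.4, 186.5 to 195.2, 165.1 to 176.2 and 158.3 to 176.1 CPM in the same order, mostly LUM, with FAP at 0. The 12 epithelial and serous markers summed to 6179 to 6281 CPM in control, 6372 to 6534 with ascites, 6364 to 6688 with bezafibrate and 6840.1 to 6945 CPM with the combination, so every control library was below every other. The part of these markers in the changes of the 39 genes was not tested.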

How the data were processed

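Gene counts of 12 RNA-seq libraries of CAOV3 cells were used, 3 in each of 4 groups named by the labels. For each library the authors deposited whole-number gene counts. The submitters' processing notes name Trimmomatic 0.39, STAR 2.7.9a, RSEM 1.3.3, DESeq2 1.28.1 and the build GRCh38, with no roles given. Annotation, rounding and strandedness are not given in the sources used here, so counts of overlapping genes are uncertain. Total counts were 11831093 to 18762759, and replicates of a group differed by more than counting noise (chi-square per degree of freedom 1.44 to 4.45).

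Counts were filtered by filterByExpr (minimum count 10, total 15) in edgeR 4.0.16, scaled by TMM and fitted with 1 mean per group over all 12 libraries (8 residual degrees of freedom). Contrasts were tested by the quasi-likelihood F test in R 4.3.3, with Benjamini-Hochberg adjustment over 12470 genes. The drug effect was averaged over cells without and with ascites. SEs are the log2 change divided by the root of F. The script was tested on simulated counts. Alternatives were RLE and upper-quartile scaling, no filter, DESeq2 1.42.0, a replicate block, fits of 2 groups, leaving out each library and, added after seeing the data, GC and length trends removed.

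The members, lists, motifs and alternatives were chosen with earlier results of these data known. Values in every library are given for the 12 members with the lowest adjusted p for the averaged drug effect, at least 1 member of each role, and MCM6 and TYMS, chosen after their values were seen. Of each other list the called genes with the largest change are named, at most 5 in each direction, with CDKN1A, CDKN1B, CCND1, RB1, E2F7, E2F8, CCNA2 and MKI67 given whether called or not. Gene coordinates, lengths and overlaps are from GENCODE v29 on GRCh38 and promoter windows from RefSeq. Protein sequences were not used here.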

Additional observations from a re-analysis of the deposited data

How the results depend on the processing

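Of the member counts, those for bezafibrate against control moved most. That count was 9, and became 14 under upper-quartile scaling and 19 with GC and length trends removed. With the GC and length trends removed, the combination against control went from 10 to 16, the combination against ascites from 13 to 18 (2 higher, 16 lower) and the averaged drug effect from 19 to 22. Leaving out 1 library gave 6 to 12 for the drug alone, 9 to 14 for the combination against ascites (lowest without ascites replicate 2), 8 to 11 for the combination against control, 15 to 19 for the averaged drug effect and 11 to 14 for any difference. The ascites comparisons and the interaction stayed at 0 under every alternative run. DESeq2 called 15 of 39 for the averaged drug effect (3 higher, 12 lower). No called member changed sign, and 13 of 19 averaged calls were kept under all 18 alternatives. In bezafibrate against control, upper-quartile scaling and the removal of GC and length trends each shifted the median of all genes by -0.02, and the share of called genes that were higher went from 57.2% to 49.0% and 46.7%.

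With the replicate number as a block, the counts were 18 for the averaged drug effect (3 higher, 15 lower), 9 for the drug alone, 13 for the combination against ascites and 10 for the combination against control. Deviations of libraries with the same number correlated between -0.14 and 0.061, so the numbers were not taken as pairing. Depth limits the low members most: POLE2, at 17.1 CPM in control, had the widest interval for the averaged drug effect (-0.18 to 0.08).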
